A study of Saccharomyces cerevisiae with 8 samples.

Results

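Trehalose metabolism was followed through 9 genes of budding yeast, chosen by name for their part in making trehalose, breaking it down or supplying its precursor. They were found through the gene symbol that the platform's annotation gives each probe set. Each of the 9 genes had 1 probe set of its own, and all 9 were among the 5343 genes tested, of 5656 genes with a probe set that names no other gene. The series compared BY4742, a haploid laboratory strain that needs histidine, leucine, lysine and uracil in its medium, with a strain labelled stb3-null, which lacks STB3. The Stb3 protein is known to bind a promoter element of ribosome biogenesis genes. Cells of both strains grew for 3 days in the rich medium YPD and were sampled then, without added glucose, or 10 min after 2% glucose was given. There were 4 groups of 2 arrays (replicates A and B), and the labels say neither whether these came from separate cultures nor how STB3 was deleted or from how many clones.

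Trehalose is a disaccharide of glucose that yeast stores in stationary phase and uses as a protectant under heat and drying. Phosphoglucomutase and UDP-glucose pyrophosphorylase supply UDP-glucose, which the trehalose synthase complex joins to glucose-6-phosphate and then dephosphorylates. Trehalases split the sugar back to glucose, and glucose given to starved cells is known to activate neutral trehalase through protein kinase A at the level of the enzyme, which arrays do not measure. Values below are log2 signals of the deposited table, so that a difference of 1 is a doubling. Signals of different genes come from different probes and are not set against each other as levels.

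STB3 was low on all 4 stb3-null arrays, between 2.50 and 3.30, and lay between 7.62 and 9.23 on the wild-type arrays. The array medians lay between 7.53 and 7.69. Replicates of wild type lay farther apart than those of stb3-null. Over all genes, the difference between B and A had an SD of 0.577 in wild type before glucose and 0.548 after it. In stb3-null these SDs were 0.261 and 0.278. The wild-type array B after glucose was low for these genes: 8 of the 9 were lower on B than on A, with a median difference of -0.92, while the median over all genes was 0.01. At 3 days in wild type 6 of the 9 were lower on B, with a median of -0.24. In stb3-null at 3 days all 9 were lower on B, with a median of -0.31, as were 67.9% of all genes, and after glucose 4 of the 9 were.

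**Figure D1:**
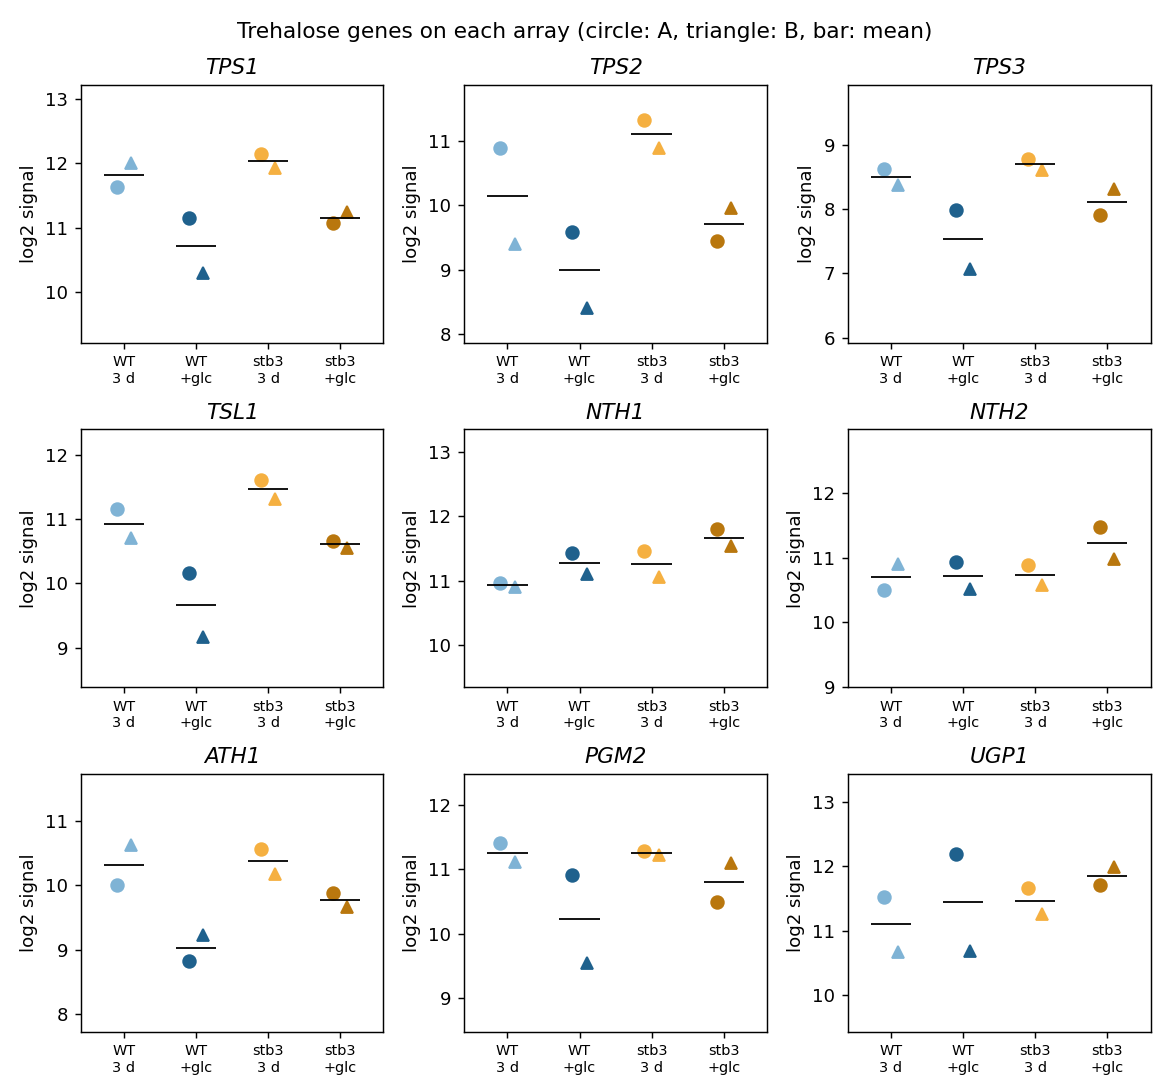
Log2 signal (vertical axis, each panel spanning the same range of log2 units) of each of the 9 genes on the 8 arrays, by strain and condition (WT, BY4742; stb3, stb3-null; 3 d, 3 days; +glc, 10 min after glucose), with circles for replicate A, triangles for B and bars for the mean of both. The synthase genes TPS1, TPS3 and TSL1 lay lower on all 4 arrays after glucose than on all 4 before it, whereas NTH1, NTH2 and UGP1 did not separate that way.

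The first question was what glucose did to these genes in wild type. Of the 9 genes, 4 fell within 10 min and none rose: the synthase genes TPS1, TPS3 and TSL1 and the acid trehalase gene ATH1, by 1.96-fold to 2.45-fold. Over all genes, 17.6% passed downward and 32.3% upward, 49.9% together. The median change of the 9 genes was -1.03, against 0.22 for all genes tested. Signals of 5 of the 9 were lower after glucose without overlap, as were those of 26.9% of all genes. For 1 of the 9 they were higher without overlap, as for 44% of all genes. Every comparison was tested with limma across all genes, two-sided, and passing means a Benjamini-Hochberg adjusted p under 0.05.

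TPS1 (YBR126C) encodes the synthase that makes trehalose-6-phosphate. In wild type its log2 signal was 11.63 and 12.01 on A and B at 3 days and 11.15 and 10.29 after glucose. Both arrays after glucose lay below both before it. The group means were 11.82 ± 0.27 and 10.72 ± 0.61 (SD, n = 2), and the change was -1.10 (SE 0.32, 95% interval -1.82 to -0.38, limma adjusted p = 0.0176), a 2.14-fold fall. Without the glucose array B the change was -0.67 (limma adjusted p = 0.104), without the 3-day array B it was -0.91 (limma adjusted p = 0.0769), and without both wild-type B arrays it was -0.48 (limma adjusted p = 0.212).

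TPS2 (YDR074W) encodes the phosphatase that removes the phosphate from trehalose-6-phosphate. Its signal was 10.89 and 9.40 on A and B at 3 days and 9.59 and 8.41 after glucose. The replicates lay more than 1 apart in both conditions, so the groups overlapped, although each letter on its own was lower after glucose. The change of -1.15 had an SE of 0.51 and did not pass (limma adjusted p = 0.0856). Without both B arrays it was -1.30, from 1 array against 1 with no wild-type replicate left. Without the 3-day array A it was -0.40 and without the 3-day array B -1.89. With quantile normalisation it was -1.62 and passed (limma adjusted p = 0.044). With a trimmed mean made equal on all arrays it was -1.63 and passed too (limma adjusted p = 0.0321). In all, TPS2 passed in 6 of the 21 other settings tried.

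TPS3 (YMR261C) and TSL1 (YML100W) encode the regulatory subunits of the synthase complex. The TPS3 signal was 8.62 and 8.38 at 3 days and 7.99 and 7.07 after glucose on A and B. TSL1 gave 11.15 and 10.71 before glucose and 10.17 and 9.17 after it. For both genes the groups did not overlap, and array B after glucose was the lowest of the 4. TPS3 fell by 0.97 (SE 0.30, limma adjusted p = 0.0215) and TSL1 by 1.26 (SE 0.34, limma adjusted p = 0.0125). Without the glucose array B these changes were -0.51 (limma adjusted p = 0.141) and -0.76 (limma adjusted p = 0.0757). Without the 3-day array A they were -0.85 and -1.04, and neither passed (limma adjusted p = 0.0785 and 0.06).

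Among the genes for breakdown, ATH1 fell and neither neutral trehalase gene passed. ATH1 (YPR026W), the acid trehalase gene, encodes the enzyme that acts on trehalose outside the cytosol. Its signal in wild type was 10.00 and 10.63 at 3 days and 8.82 and 9.22 after glucose on A and B. The groups did not overlap, and here B was the higher array in both. ATH1 fell by 1.29 (SE 0.29, 95% interval -1.94 to -0.65, limma adjusted p = 0.00467), or 2.45-fold, and it was called in all 21 other settings tried, with changes from -1.78 to -0.98.

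NTH1 (YDR001C) and NTH2 (YBR001C) encode the neutral trehalase of the cytosol and its paralog. NTH1 gave 10.96 and 10.90 at 3 days and 11.44 and 11.11 after glucose on A and B in wild type. NTH2 gave 10.50 and 10.90, and then 10.93 and 10.51. The NTH1 signal was higher after glucose on both arrays, while the NTH2 groups overlapped. Neither passed, with changes of 0.34 for NTH1 (SE 0.26, limma adjusted p = 0.302) and 0.02 for NTH2 (SE 0.29, 95% interval -0.64 to 0.68, limma adjusted p = 0.959). Their signs depended on how arrays were scaled: quantile normalisation put NTH1 at -0.34 and NTH2 at -0.54, and a trimmed mean made equal on all arrays put them at -0.14 and -0.46. NTH2 was also below 0 without the 3-day array A (-0.18) and without the glucose array A (-0.19).

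Neither supply gene passed in the fit as reported, but PGM2 did under other scalings. PGM2 (YMR105C), for the major phosphoglucomutase, which interconverts glucose-6-phosphate and glucose-1-phosphate, gave 11.41 and 11.11 at 3 days and 10.91 and 9.55 after glucose. Its groups did not overlap, but the replicates after glucose lay 1.36 apart, and the change of -1.03 (SE 0.41) did not pass (limma adjusted p = 0.062). It was -0.35 without the glucose array B and -1.71 without A, the latter passing (limma adjusted p = 0.00268). PGM2 also passed under each of the 3 other scalings, at -1.66 with quantile normalisation (limma adjusted p = 0.00967), -1.51 with a common trimmed mean (limma adjusted p = 0.0157) and -1.12 with median centring (limma adjusted p = 0.0465). UGP1 (YKL035W), for UDP-glucose pyrophosphorylase, gave 11.52 and 10.67 before and 12.19 and 10.69 after glucose. Array B minus A was -0.85 and -1.50, which was in size more than the change of 0.34 between the groups (SE 0.47, limma adjusted p = 0.569). Without the glucose array B the UGP1 change was 1.10 with a limma adjusted p of 0.05, just inside the threshold, and without A it was -0.41.

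The same question was put to the strain without STB3. None of the 9 genes passed there (smallest limma adjusted p = 0.0512), whereas 11.6% of all genes passed downward, 28% upward and 39.5% in all. At an unadjusted p below 0.05, 3 of the 9 did, with 48.9% of all genes. All the same, 6 genes had a negative change, with a median of -0.58 over the 9 genes against 0.26 for all genes. The signals of those 6 genes did not overlap between conditions, as was so for 28.5% of all genes in that direction.

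TPS1 in stb3-null gave 12.14 and 11.92 on A and B at 3 days and 11.07 and 11.24 after glucose. The replicates lay within 0.22 of each other, and the change was -0.88 (SE 0.32, 95% interval -1.60 to -0.15, limma adjusted p = 0.0546). TPS2 gave 11.33 and 10.89, and then 9.45 and 9.96, a change of -1.41 (SE 0.51, limma adjusted p = 0.0512). That was the lowest change of the 9 genes in this strain, and only 3.03% of all genes had a lower one. TSL1 gave 11.61 and 11.31, and then 10.66 and 10.55, a change of -0.86 (SE 0.34, limma adjusted p = 0.0716). TPS3 gave 8.78 and 8.61, and then 7.91 and 8.31, a change of -0.58 (SE 0.30, limma adjusted p = 0.143).

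ATH1 in stb3-null gave 10.56 and 10.18 before and 9.88 and 9.66 after glucose, a change of -0.60 (SE 0.29, limma adjusted p = 0.124). PGM2 gave 11.29 and 11.23, and then 10.50 and 11.10, a change of -0.46 (SE 0.41, limma adjusted p = 0.398) that was -0.16 without the glucose array A. The remaining 3 genes were higher after glucose on both arrays without passing, as 52.1% of all genes were higher without overlap. NTH1 went from 11.46 and 11.06 to 11.80 and 11.54 (change 0.41), NTH2 from 10.89 and 10.58 to 11.48 and 10.98 (change 0.50), and UGP1 from 11.66 and 11.26 to 11.70 and 11.98 (change 0.38), with limma adjusted p-values of 0.241, 0.203 and 0.544. Leaving out 1 array lowered these changes to as little as 0.21 for NTH1 (3-day array B), 0.24 for NTH2 (glucose array A) and 0.18 for UGP1 (3-day array B). With quantile normalisation these 3 changes were negative, at -0.28, -0.10 and -0.33, and did not pass.

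**Figure D2:**
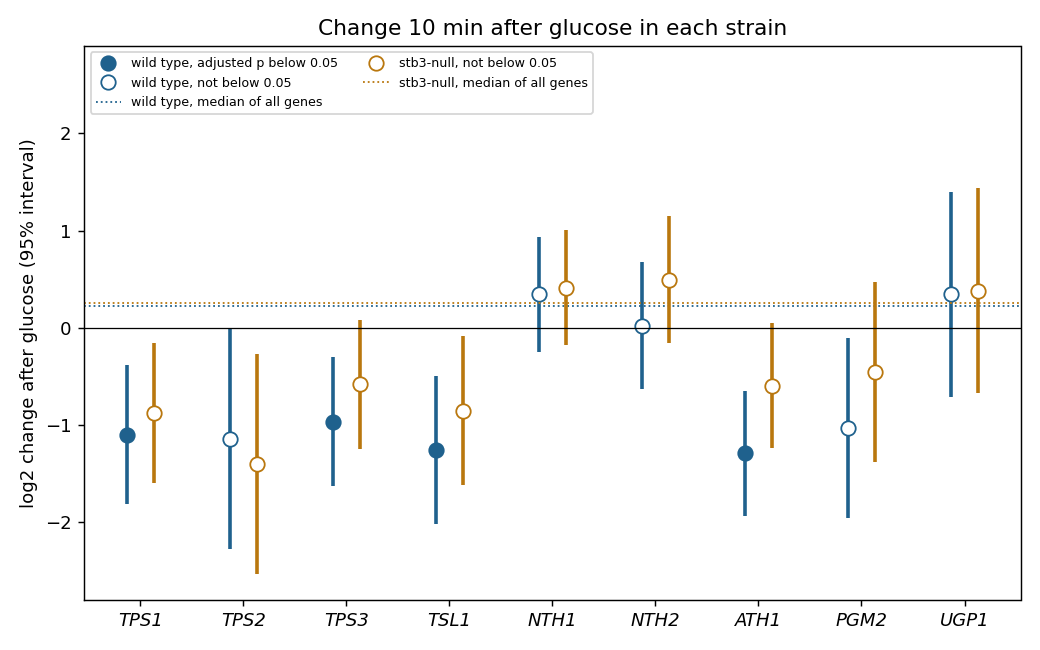
Log2 change 10 min after glucose (vertical axis, with the 95% interval of the limma fit) for each gene in wild type and stb3-null. Filled points passed the test and open points did not, and dotted lines give the median of all genes in each strain (0.22 and 0.26). The 4 filled points are TPS1, TPS3, TSL1 and ATH1 in wild type, and the intervals of both strains overlap for all 9 genes.

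The absence of a call in stb3-null depended on the estimate of the spread, which all 4 groups shared. It also depended on how arrays were scaled, as the closing counts show. With the stb3-null groups fitted alone, TPS1, TPS2, TPS3, TSL1 and ATH1 passed downward (5 of 9, with 20.6% of all genes). Without both wild-type B arrays 5 of the 9 passed downward in stb3-null as well, again with 20.6% of all genes, at the same changes as before since stb3-null arrays alone set them. With wild type fitted alone, 2 of the 9 passed, with 11.6% of all genes lower. The number of calls therefore does not rank the strains.

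Averaged over both strains in the same fit, a comparison added after these values were seen and resting on the same arrays, 6 of the 9 genes fell and none rose. Over all genes, 21.1% passed downward, 39.8% upward and 60.9% in all. The changes were -1.28 for TPS2 (SE 0.36, limma adjusted p = 0.0116), -1.06 for TSL1 (SE 0.24, limma adjusted p = 0.00395) and -0.99 for TPS1 (SE 0.23, limma adjusted p = 0.00412). They were -0.95 for ATH1 (SE 0.20, limma adjusted p = 0.00279), -0.78 for TPS3 (SE 0.21, limma adjusted p = 0.00946) and -0.74 for PGM2 (SE 0.29, limma adjusted p = 0.0489). Of these, 5 had all 4 signals after glucose below all 4 before it, TPS2 being the exception, as did 18.2% of all genes. TPS1, TPS3, TSL1 and ATH1 passed in all 20 other settings run on this average. TPS2 passed in 19 and missed without the 3-day stb3-null array A (limma adjusted p = 0.0518), and PGM2 passed in 13.

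NTH1, NTH2 and UGP1 averaged 0.38, 0.26 and 0.36, and none passed in the fit as reported (limma adjusted p = 0.106, 0.303 and 0.368). UGP1 passed in 2 of the 20 other settings run on this average. It was at 0.74 without the wild-type glucose array B and at 0.53 without both wild-type B arrays. Among all genes the changes as reported lay in the middle: 56.4% of genes had a lower change than NTH1, 51.2% than NTH2 and 55.8% than UGP1. The 6 genes that fell had between 5.18% and 13.6% of all genes below them. The 9 genes thus split between the lower part of the distribution and its centre, with all 4 synthase complex genes in the lower part.

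**Figure D3:**
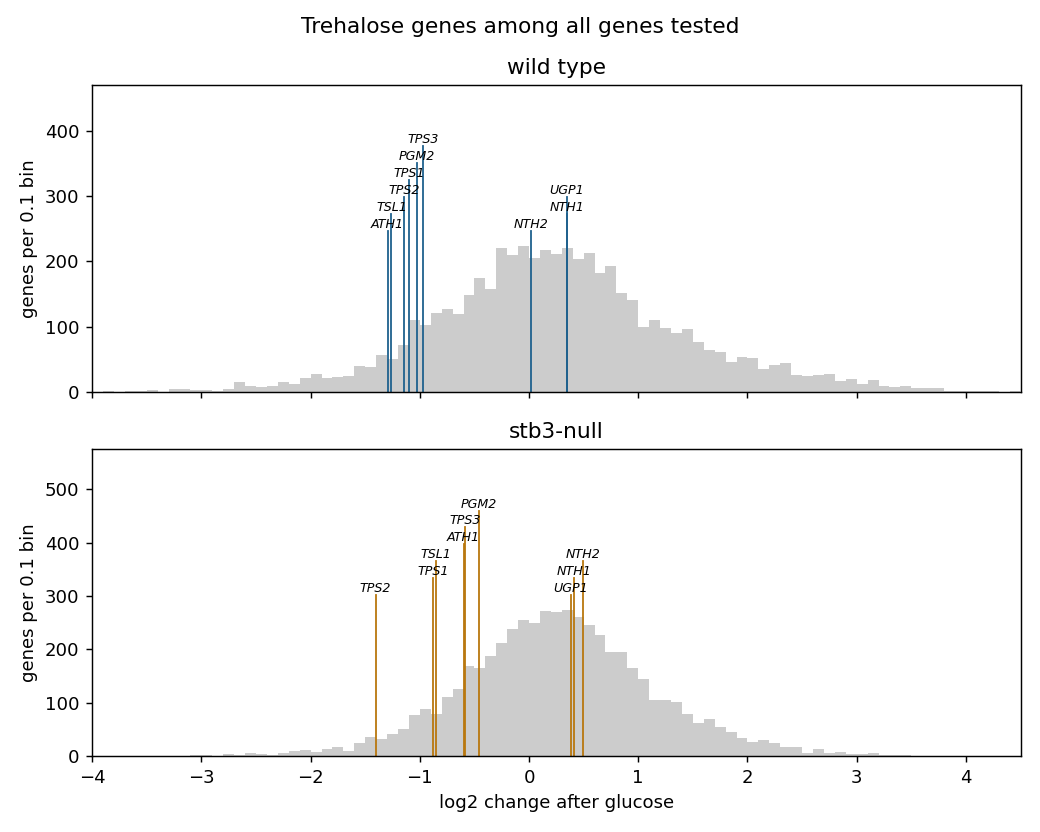
Number of genes (vertical axis) by log2 change after glucose in bins of 0.1 (horizontal axis) for all 5343 genes tested in wild type and stb3-null, with a line at each of the 9 genes. TPS1, TPS2, TPS3, TSL1, ATH1 and PGM2 lie on the falling side and NTH1, NTH2 and UGP1 near the centre of both distributions.

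Differences between genes on the same array do not move when a whole array is scaled up or down, and were read for their change between conditions. The log2 signal of TPS1 minus that of NTH1 was 0.67 and 1.11 on A and B of wild type at 3 days and -0.29 and -0.82 after glucose. In stb3-null it was 0.68 and 0.86, and then -0.73 and -0.30. TPS1 signal relative to NTH1 signal was thus lower on every array after glucose than on every array before it. No other synthase gene was set against a neutral trehalase gene. The mean shift of TPS1 minus NTH1 was -1.45 for wild type and -1.28 for stb3-null. No such shift was seen between TPS1 and ATH1, whose difference was 1.63, 1.38, 2.33 and 1.07 over the wild-type arrays in the order 3 days A and B, glucose A and B. In stb3-null it was 1.58, 1.74, 1.19 and 1.58, and the conditions overlapped in both strains.

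PGM2 and UGP1 catalyse successive steps, and their signals changed unequally. PGM2 minus UGP1 was -0.11 and 0.44 on A and B in wild type at 3 days and -1.28 and -1.14 after glucose. In stb3-null it was -0.37 and -0.03, and then -1.20 and -0.88. The conditions did not overlap in either strain, and the mean shift was -1.38 for wild type and -0.84 for stb3-null. The replicate spread of this difference after glucose in wild type, 0.14, was smaller than that of PGM2 or UGP1 alone, since array B was low for both genes.

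The paralog pairs gave smaller shifts than these. NTH1 minus NTH2 was 0.46 and 0.00 in wild type at 3 days and 0.51 and 0.60 after glucose, and 0.57, 0.48, 0.32 and 0.56 over the stb3-null arrays in the same order. TSL1 minus TPS3 was 2.53 and 2.33, and then 2.18 and 2.10 in wild type, and 2.83, 2.70, 2.75 and 2.24 in stb3-null. Both differences separated the conditions in wild type, by 0.32 and -0.29, and overlapped in stb3-null. All these differences between genes are descriptions and were not tested, and their mean shifts follow from the changes of the single genes given above. How often other pairs of genes separate the conditions was not counted. Of single genes, 44% were higher and 26.9% lower without overlap in wild type, and 52.1% and 28.5% in stb3-null. The smallest two-sided p of an exact permutation test of 2 arrays against 2 is 0.333.

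**Figure D4:**
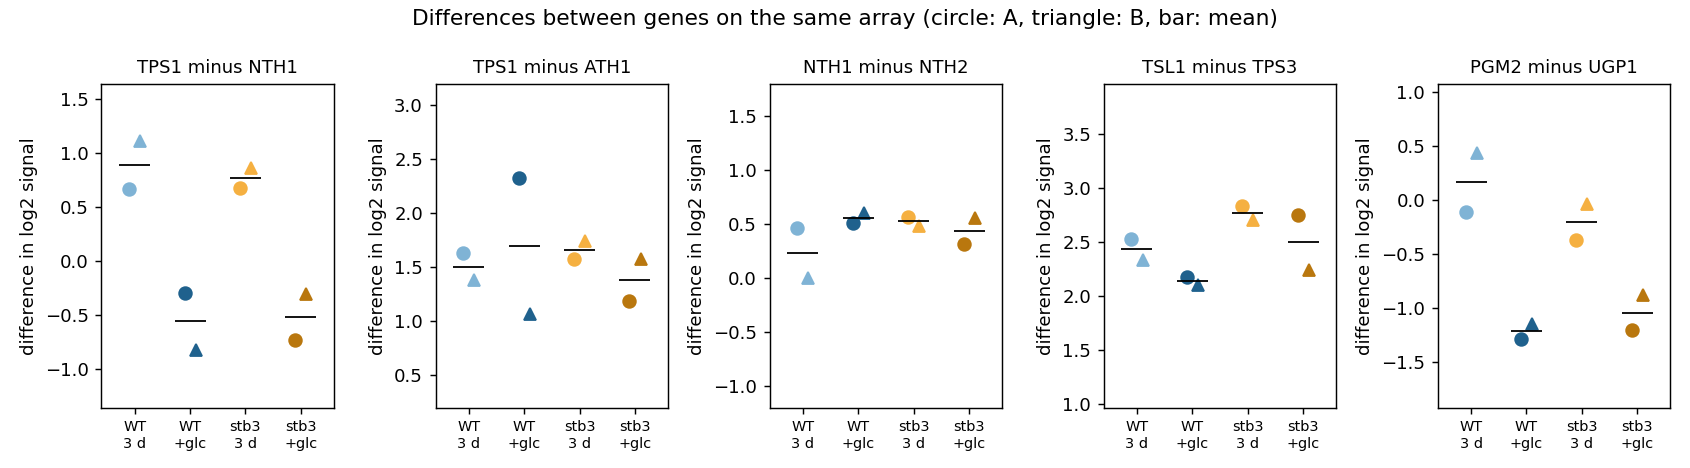
Difference in log2 signal between pairs of genes on the same array (vertical axis), for the 8 arrays by strain and condition, with circles for replicate A, triangles for B and bars for the mean. TPS1 minus NTH1 and PGM2 minus UGP1 are lower on all 4 arrays after glucose, whereas TPS1 minus ATH1 overlaps between conditions.

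The next comparisons asked whether loss of STB3 changed these genes before or after glucose. None of the 9 passed at 3 days (smallest limma adjusted p = 0.634) or after glucose (smallest limma adjusted p = 0.45). Hardly any gene did: 0.0374% of all genes passed at 3 days and 0.0187% after glucose. The only gene to pass after glucose was STB3, the deleted gene itself, which was also 1 of the 2 genes that passed at 3 days. At an unadjusted p below 0.05 the 9 genes gave 0 at 3 days, with 8.72% of all genes, and 2 after glucose, TSL1 and ATH1, with 9.66% of all genes. The median difference, stb3-null minus wild type, was 0.21 at 3 days and 0.57 after glucose, against 0.03 for all genes at 3 days and 0.04 after glucose.

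After glucose TSL1 lay at 10.66 and 10.55 in stb3-null and 10.17 and 9.17 in wild type, without overlap. The difference was 0.94 (95% interval 0.17 to 1.70, limma adjusted p = 0.45), and 98.97% of all genes had a lower one. ATH1 differed by 0.75 (95% interval 0.11 to 1.39, limma adjusted p = 0.459), also without overlap. In all, 4 of the 9 genes were higher in stb3-null after glucose without overlap, as were 23.8% of all genes. TPS2 had the largest difference of the 9 genes at 3 days, 0.96 (95% interval -0.17 to 2.10, limma adjusted p = 0.634), and it rested on the wild-type array B at 9.40. Without both wild-type B arrays it was 0.22.

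The wild-type B arrays bore on the comparison after glucose. Without both wild-type B arrays the median difference of the 9 genes after glucose was 0.12. TPS1 was then at 0.01, TPS2 at 0.12, PGM2 at -0.11 and UGP1 at -0.35, while TSL1 was at 0.44. ATH1 was at 0.95. That setting, chosen after seeing the data, left 1 array in each wild-type group, so its spread came from stb3-null arrays alone. None of the 9 genes passed between the strains in any other setting tried.

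The last comparison tested whether the glucose responses of both strains differed. No gene of the 9, and 0% of all genes, passed this interaction, with 6.92% of all genes and 0 of the 9 at an unadjusted p below 0.05. The difference of responses, stb3-null minus wild type, was largest for ATH1, at 0.70 (95% interval -0.21 to 1.60, limma adjusted p = 0.768), followed by PGM2 at 0.57 (95% interval -0.74 to 1.88). For TPS1 it was 0.23 (95% interval -0.79 to 1.24), for TSL1 0.41 (95% interval -0.68 to 1.49) and for TPS3 0.38 (95% interval -0.55 to 1.32). TPS2 alone had a negative one in the fit as reported, at -0.26 (95% interval -1.87 to 1.35). NTH1 and UGP1 were near 0, at 0.06 and 0.04, and NTH2 was at 0.48 (95% interval -0.45 to 1.40). The signs of most of these differences rested on the wild-type arrays. Without the wild-type glucose array B they were -0.20 for TPS1, -0.09 for TSL1, -0.07 for TPS3, -0.11 for PGM2, -0.10 for NTH1 and -0.71 for UGP1. Without both wild-type B arrays TPS1 was at -0.39, TPS2 at -0.10, TSL1 at 0.12, TPS3 and PGM2 at 0.04 each, NTH1 at -0.07, NTH2 at 0.06 and UGP1 at -0.29. TPS2 turned to 0.48 without the 3-day wild-type array B. ATH1 and NTH2 stayed above 0 in every setting tried, from 0.38 to 1.01 and from 0.065 to 0.725, without passing. The intervals hold differences in response of about the size of the responses themselves, so that like responses in both strains were not shown either.

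**Figure D5:**
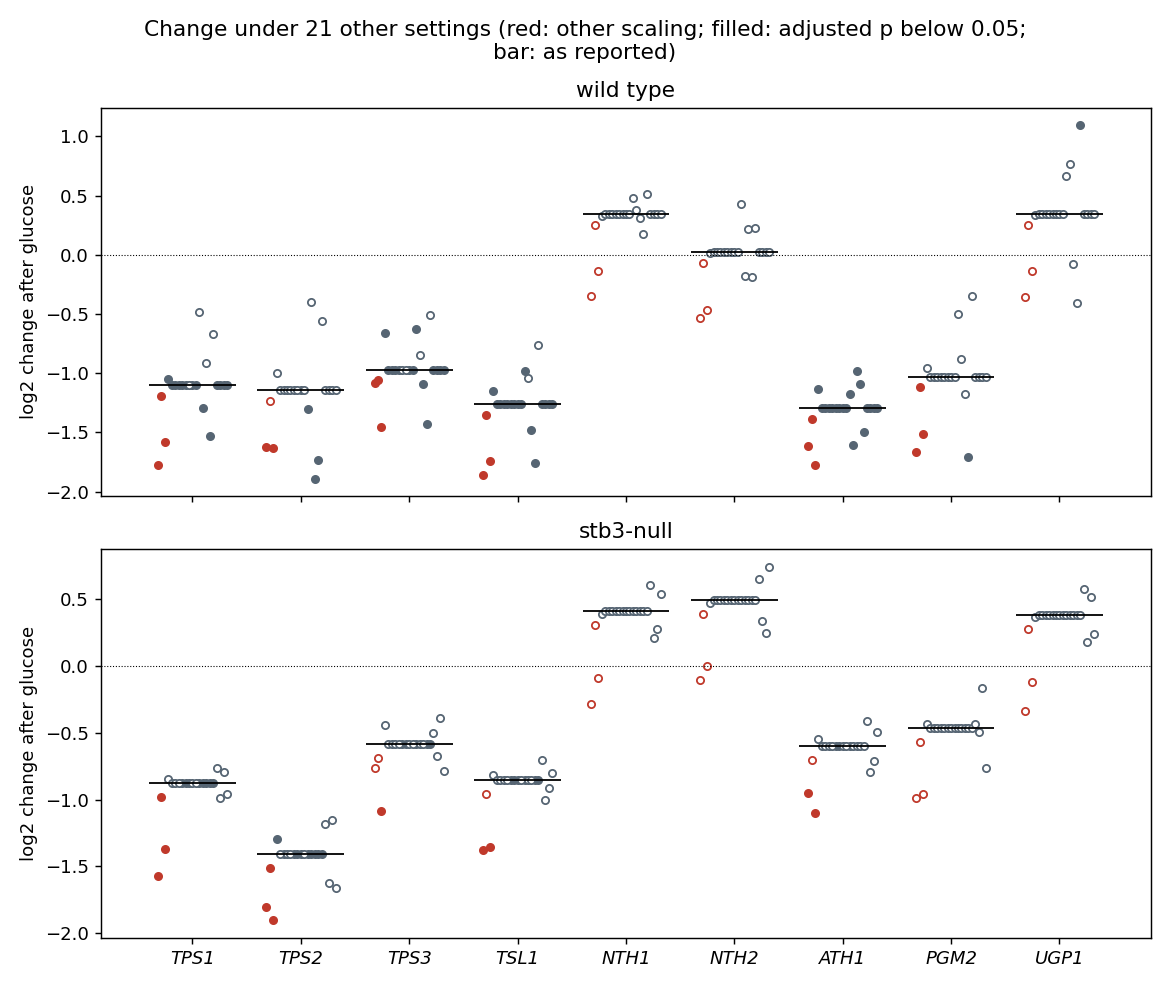
Log2 change after glucose (vertical axis) of each gene in wild type and stb3-null under 21 other settings (points, red for the 3 other ways of scaling arrays, filled where the adjusted p was below 0.05) and as reported (bars). TPS1, TPS2, TPS3, TSL1, ATH1 and PGM2 stay below 0 in every setting, and NTH1, NTH2 and UGP1 cross 0 with other scaling.

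Genes that border on the pathway were read from lists chosen for their function, with earlier results of these data known. Among 8 glycogen enzyme genes, which draw on the same UDP-glucose, 6 fell in wild type, 4 fell in stb3-null and none rose, with medians of -1.60 and -1.21. Over all genes, 17.6% and 11.6% fell. The largest falls were those of the glycogen synthase gene GSY1 (-2.38 and -1.94) and the glycogenin genes GLG1 (-2.15 and -2.10) and GLG2 (-2.05 and -1.45), in wild type and stb3-null in turn. Of 6 genes of hexose phosphate supply 5 were tested, with medians of -0.12 and -0.05. HXK1, a hexokinase gene, was the only one of them to pass, with a change of -1.92 in wild type (SE 0.45, limma adjusted p = 0.00622) and -1.71 in stb3-null (limma adjusted p = 0.0151).

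MAL11, an alpha-glucoside transporter gene that also serves trehalose uptake, gave 9.08 and 8.57 in wild type at 3 days and 6.77 and 6.49 after glucose. In stb3-null it gave 9.09 and 9.02, and then 7.27 and 7.06. Its change was -2.20 in wild type and -1.89 in stb3-null (SE 0.22 each, limma adjusted p = 6.55e-05 and 3.39e-04), a larger change than that of any of the 9 genes. Of 14 regulator genes 13 were tested. In wild type 5 fell and 2 rose (median -0.46), and in stb3-null 5 fell and 3 rose (median 0.02). Over all genes 32.3% rose and 17.6% fell in wild type, and 28% rose and 11.6% fell in stb3-null. The largest falls were those of GIS1, a transcription factor gene of the stationary-phase program (-2.07 and -1.42), DCS2, a stress-induced paralog of a decapping gene (-1.96 and -1.41), and TPK2, a catalytic subunit gene of protein kinase A (-1.51 and -1.27). The rises, named after their values were seen, were BMH1, a 14-3-3 protein gene (1.19 and 1.16), in both strains, TPK3 (0.94) in wild type, and MSN2 (0.72), for an activator of stress genes, and RIM15 (0.86), a kinase gene of quiescence entry, in stb3-null. TPK3 was faint, at 5.66 and 5.23 in wild type at 3 days and 6.27 and 6.51 after glucose, near the filter of 5.80 described below. No gene of these lists passed between the strains or in the interaction.

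The genes whose profiles lay closest were sought by the root mean square difference over the 8 arrays, after each gene's mean was subtracted, as a description only. Among the 9 genes themselves, TPS3 and PGM2 were the closest pair, at 0.144 (Pearson's r = 0.97), and the neutral trehalase genes NTH1 and NTH2 were each other's closest, at 0.184 (r = 0.813). Among the other 5334 genes, the closest to TPS1 was SOL4 (0.116, r = 0.982), a gene of the 6-phosphogluconolactonase family. STB2 was closest to ATH1 (0.0835, r = 0.991), BSC5 to TSL1 (0.129, r = 0.984), MMO1 to TPS2 (0.238, r = 0.985) and YJR149W to both TPS3 (0.105) and PGM2 (0.198). The proteasome lid gene RPN6 was closest to NTH1 (0.0693, r = 0.98), the sphingolipid hydroxylase gene SCS7 to NTH2 (0.089, r = 0.959) and the Ran homolog gene GSP2 to UGP1 (0.158, r = 0.972). The median over other genes ran from 0.468 for NTH1 to 1.04 for TPS2. All these points share the same 8 arrays and their spread between replicates.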

How the data were processed

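Each of 8 RNA samples was hybridised to 1 Affymetrix array. The table deposited by the authors gives log2 signals for 9275 probe sets. MAS5 is named in the submitters' processing notes, with neither version nor role, and the scaling between arrays is not stated in these sources. That the logarithm has base 2 is inferred from the highest value, 14.55. No pseudocount was added. Genes were named from the platform's annotation, checked against RefSeq genes of R64, and where several probe sets measured 1 gene, the brightest on average was taken. A gene was tested if its mean antilog signal reached 10% of the arrays' mean 2% trimmed mean, or 5.80 in log2.

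Group means were fitted to all 8 arrays together with limma 3.58.1 in R 4.3.3, using eBayes with trend, on 4 residual degrees of freedom. Adjustment ran over all 5343 genes of a comparison. P-values reflect spread among these arrays alone, which may be technical, and their number limits the precision. The fit was tested on simulated data in which each gene had the same spread in all groups. The wider replicate spread of wild type was therefore not part of that test. The 9 genes and the lists were chosen with earlier results of these data known. The text names all 9 genes, STB3, the called genes with the 3 largest changes per list, and each gene's closest profile. The regulator genes that rose were named after their values were seen. Other scalings, filters, probe set rules, models of the spread, a replicate block and omission of each array were run as alternatives. A planned search of promoters for motifs was not run, since no sequences were used here.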

Additional observations from a re-analysis of the deposited data

How the results depend on the processing

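Of 1116 recomputed changes of the 9 genes over up to 21 other settings per comparison, 1041 kept their side of the threshold, 18 no longer passed, 57 newly passed, and no called change turned its sign. In wild type the 4 called genes became 2 with only the 2 groups compared, and 2 to 6 when 1 array was left out. In stb3-null, where 0 of 9 passed, 5 passed with a common trimmed mean, with array weights, with only the 2 groups compared and without both wild-type B arrays, 4 with quantile normalisation, 2 with median centring and with the replicate block, and 1 with a pseudocount of 20%, with the filter at 40% and without the trend. Leaving out 1 array gave 0 to 4. The labels do not say that letters A and B pair arrays of different groups, and the deviations of A correlated between groups at -0.18 to 0.22. With the replicate block the 9 genes gave 5 calls in wild type.

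Counts over all genes moved as well. In stb3-null 2113 genes passed, against 3255 with array weights, 3284 with only the 2 groups compared, 3293 without both wild-type B arrays and 915 to 2524 with 1 array left out. Between strains at 3 days 2 genes passed, against 1 with the filter at 40%, 226 without both wild-type B arrays and 1 to 168 with 1 array left out. After glucose 1 gene passed, against 0 with a pseudocount or with the filter at 40%, 4 with array weights, 271 without both wild-type B arrays (among them 1 of the 9, ATH1) and 1 to 56 with 1 array left out. The interaction gave 0, against 33 without both wild-type B arrays and 0 to 5 with 1 array left out. The omission of both B arrays, a robust fit and the average over strains were chosen after seeing the data. Omitting both wild-type B arrays left 1 array in each wild-type group, so that the spread came from stb3-null arrays alone.

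The split of higher and lower calls over all genes moved with the scaling: in wild type 1728 to 940 as reported, 1398 to 1255 with quantile normalisation and 1003 to 1783 with a common trimmed mean, and in stb3-null 1494 to 619, 1014 to 816 and 677 to 1475. The median of all genes moved from 0.22 to 0.02 and -0.26 in wild type, while that of the 9 genes moved from -1.03 to -1.61 and -1.51. The replicate spread in wild type limits what these comparisons can resolve, and its cause was not tested.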
